A study of Mus musculus with 2 samples.

Results

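The 9 genes described here are Cps1, Otc, Ass1, Asl and Nags of the urea cycle, Gls2, Hal and Sds of neighbouring periportal amino acid breakdown, and the periportal marker Cyp2f2. They were taken by symbol from the 32285 genes listed in both libraries, and all 9 had UMIs in hepatocytes of both libraries. The counts came from droplet-based single-cell RNA sequencing of mouse liver, in which a barcode marks the droplet and a unique molecular identifier (UMI) marks each captured transcript molecule. The WT library came from wild-type littermates and the HKO library from mice lacking miR-33 in hepatocytes through an albumin-driven Cre, and the labels title the latter miR-33 HKO and give its genotype as AlbCRE. Both groups were 8 weeks old when CD-HFD feeding began, were fed for 6 months, and contributed 1 library each from a pool of 3 livers, with hepatocytes and sorted non-parenchymal cells mixed at equal numbers. Pooled animals and 1 library per genotype leave no replicates, so no test between genotypes was possible. Every interval given is a 95% counting interval, which leaves out differences between mice and between preparations.

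The urea cycle turns ammonia, which is toxic, into urea that the kidney excretes. Its first steps run in hepatocyte mitochondria and the later ones in the cytosol. Hepatocytes differ along the axis from the portal vein, where blood enters the lobule, to the central vein, where it leaves. Ureagenesis and the breakdown of many amino acids are known from the periportal side, whereas the last hepatocytes before the central vein express glutamine synthetase (Glul), which captures remaining ammonia as glutamine.

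Hepatocytes were taken as barcodes without markers of other cell classes and with at least 5000 UMIs, and are called hepatocyte-like. There were 1990 of 30078 barcodes in WT, with a median depth of 19438.5 UMIs, and 1599 of 20000 in HKO, with a median of 10720. Alb, Apoa1, Ttr and Fabp1, which define hepatocytes, had UMIs in 100% of these barcodes in both libraries. Summed UMIs of markers of each immune, endothelial and stellate list stayed between 8.4e-05% and 0.00222% of all UMIs, those of cholangiocyte markers were at 0.0517% in WT and 0.0387% in HKO, and those of erythroid markers at 0.00755% and 0.00633%. The median mitochondrially encoded share was 11.4% in WT and 13.6% in HKO. The commonest depth was 2630 UMIs in WT and 794 in HKO. Near it, in clusters without markers of other classes, lay 78.6% of the kept barcodes of WT and 43.6% of those of HKO. These droplets held hepatocyte transcripts, with Alb at 34794 CPM in WT and 30104 CPM in HKO (UMIs per 1000000), and are called droplets of free RNA depth, free RNA being RNA that has left its cell. If every droplet took up that amount, free RNA would make up on average 19.4% of the UMIs of a WT hepatocyte-like barcode and 8.00% of an HKO one. That amount is an assumption, and it bears on every level below. No row for Mir33 was in the gene list, and these counts therefore cannot check the deletion.

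Because miR-33 was the deleted gene, its seed was set against the 3'UTRs of the 9 genes. The mature sequence is shown with the seed, bases 2 to 8, in capitals (RefSeq, GRCm38.p6, chr15:82198127-82198147, plus strand).
mmu-miR-33-5p: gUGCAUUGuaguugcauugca
Matches to the seed (CAATGCA, or AATGCAA, which pairs with 6 bases of the seed and has an A opposite the first base) lay in the 3'UTR of Asl and Hal and in none of the other 7 genes. Of 20850 genes with a 3'UTR in GENCODE M21 (GRCm38), 13.9% held such a match. The 3 sites are given with the matched letters in capitals, the first 2 on the minus strand at chr5:130011380-130011401 and chr5:130011291-130011312 and the third on the plus strand at chr10:93516458-93516479.
Asl, 8mer: cgaatgcCAATGCAAagagaga
Asl, 7mer-A1: taactgtgAATGCAAgattaac
Hal, 7mer-m8: atggcagCAATGCAgtggctga
A match is only a description, and no binding was measured here. The ratios of both genes, given with the rest of their groups, lay inside 1.5-fold.

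Levels are given as UMIs of a gene per 1000000 UMIs of the hepatocyte-like barcodes (CPM). Most of the 9 genes differed little between the libraries: 3 were higher in HKO, 6 were lower, and 0 of 9 passed 1.5-fold in either direction. Over the 7077 genes with a mean of at least 10 CPM, 2.39% were at least 1.5-fold higher in HKO and 4.39% at least 1.5-fold lower. The median log2 ratio (HKO over WT) was -0.09 for the 9 genes and -0.00 for all 7077. Together the 9 genes took 0.664% of hepatocyte-like UMIs in WT and 0.556% in HKO, and Cps1 was the main part of that difference.

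**Figure D1:**
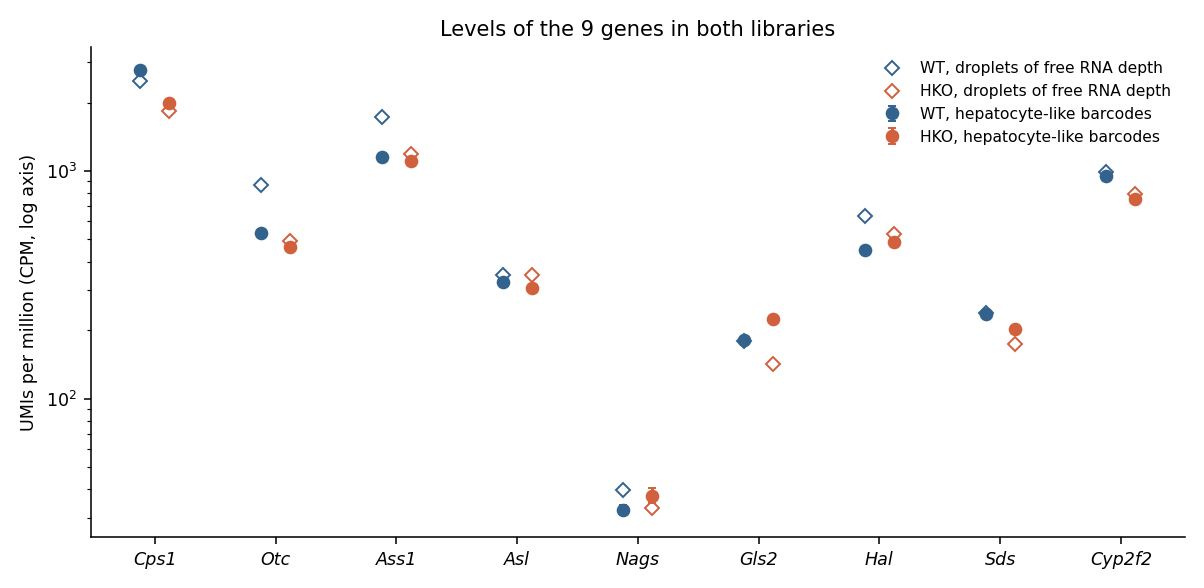
Level of each gene in UMIs per 1000000 (log axis) in hepatocyte-like barcodes (filled, with 95% counting intervals, most of them smaller than the points) and in droplets of free RNA depth (open), WT in blue and HKO in orange. Cps1 lay at 2774 CPM in WT and 1984 CPM in HKO hepatocyte-like barcodes, and in most genes the open symbols lay close to the filled ones.

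The mitochondrial enzymes came first. Cps1 (ENSMUSG00000025991, chr1:67123026-67231259, plus strand) encodes carbamoyl-phosphate synthetase, which fixes ammonia and sets the pace of the cycle. Its level was 2774 CPM (2760 to 2789) in WT and 1984 CPM (1964 to 2003) in HKO, for a ratio of 0.715 (0.707 to 0.723). This was the lowest ratio of the 9, and the difference lay outside counting error. Over single barcodes the 5th percentile, median and 95th percentile were 603, 2402 and 6669 CPM in WT and 112, 1821 and 4372 CPM in HKO, so the ranges overlapped widely. With every barcode thinned to 5000 UMIs, Cps1 had a UMI in 98.7% (98.2 to 99.2) of WT and 93.4% (92.0 to 94.5) of HKO hepatocyte-like barcodes. T and NK-like barcodes, which should lack the gene, had a Cps1 UMI in 99.0% at a median depth of 5282.5 UMIs in WT and in 75.1% at 2086 UMIs in HKO. A share of barcodes with a UMI is therefore background in WT, and levels rather than shares are used from here on.

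The Cps1 ratio stayed below 1 at every depth. It was 0.756 (0.735 to 0.777) between 5000 and 10000 UMIs, 0.635 (0.623 to 0.647) between 10000 and 20000, and 0.738 (0.724 to 0.752) at 20000 or more, where 964 WT and 213 HKO barcodes remained. It also stayed below 1 in each range of mitochondrial share, from 0.606 (0.586 to 0.626) below 2% to 0.810 (0.796 to 0.824) between 10% and 20%. In droplets of free RNA depth, which are a separate set of barcodes, Cps1 was at 2493 CPM in WT and 1844 CPM in HKO, for a ratio of 0.740 (0.726 to 0.753). The lower Cps1 of the HKO library was thus present in free RNA as well as in hepatocyte-like barcodes.

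Otc (ENSMUSG00000031173, chrX:10252305-10321024, plus strand) encodes ornithine transcarbamylase, which joins carbamoyl phosphate to ornithine. It was at 537 CPM (530 to 543) in WT and 462 CPM (453 to 472) in HKO, for a ratio of 0.861 (0.841 to 0.882). The difference was mainly in shallow barcodes, where the ratio was 0.674 (0.637 to 0.713) between 5000 and 10000 UMIs, against 0.947 (0.905 to 0.991) and 0.902 (0.866 to 0.939) in the deeper ranges. Otc was richer in free RNA than in hepatocyte-like barcodes of WT, at 867 against 537 CPM, and free RNA at the commonest depth would amount to 40.3% of the UMIs of WT barcodes between 5000 and 10000 UMIs and 11.4% of those of HKO. Over all hepatocyte-like barcodes, subtracting free RNA at the commonest depth moved the Otc ratio from 0.861 to 0.925. Nags (ENSMUSG00000048217, chr11:102145513-102149477, plus strand) makes N-acetylglutamate, the activator without which Cps1 is inactive. It was the least abundant of the 9, at 32.3 CPM (30.8 to 34.0) in WT and 37.5 CPM (34.9 to 40.2) in HKO, for a ratio of 1.16 (1.06 to 1.26). In free RNA the Nags ratio was 0.836 (0.725 to 0.959), and below 2% mitochondrial share it was 0.939 (0.743 to 1.17). Its median barcode had 0 UMIs in both libraries, so little can be said of it barcode by barcode.

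Both cytosolic enzymes described here were nearly equal in both libraries. Ass1 (ENSMUSG00000076441, chr2:31470207-31520672, plus strand), argininosuccinate synthetase, brings in the aspartate nitrogen. Its level was 1149 CPM (1139 to 1158) in WT and 1102 CPM (1088 to 1117) in HKO, for a ratio of 0.960 (0.945 to 0.975). Asl (ENSMUSG00000025533, chr5:130011258-130029247, minus strand), argininosuccinate lyase, releases arginine and fumarate. It was at 326 CPM (321 to 331) in WT and 308 CPM (300.0 to 315) in HKO, for a ratio of 0.943 (0.915 to 0.971). Neither direction was stable, as the Ass1 and Asl ratios crossed 1 under some alternatives. For Ass1 the ratio was 0.740 (0.712 to 0.769), 1.24 (1.20 to 1.28) and 1.00 (0.977 to 1.03) from the shallowest to the deepest range.

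The enzymes that deliver nitrogen from single amino acids went both ways. Gls2 (ENSMUSG00000044005, chr10:128194457-128210004, plus strand), liver glutaminase, frees ammonia from glutamine next to Cps1. It was at 182 CPM (178 to 185) in WT and 225 CPM (218 to 231) in HKO, for a ratio of 1.24 (1.19 to 1.28), the highest of the 9. The Gls2 ratio was above 1 at each depth, at 1.11, 1.26 and 1.28. In free RNA, however, Gls2 was lower in HKO, at 142 against 180 CPM, for a ratio of 0.791 (0.740 to 0.845). Hal (ENSMUSG00000020017, chr10:93488768-93519304, plus strand), histidine ammonia lyase, opens histidine breakdown. It was at 452 CPM (446 to 458) in WT and 487 CPM (478 to 497) in HKO, for a ratio of 1.08 (1.05 to 1.10). That direction was not stable, as the Hal ratio was 0.922 (0.870 to 0.978) between 5000 and 10000 UMIs, 0.933 (0.878 to 0.991) below 2% mitochondrial share and 0.836 (0.807 to 0.865) in free RNA. Sds (ENSMUSG00000029597, chr5:120476526-120483932, plus strand), serine dehydratase, turns serine into pyruvate and ammonia. It was at 236 CPM (232 to 240) in WT and 201 CPM (195 to 208) in HKO, for a ratio of 0.853 (0.823 to 0.884). Sds remained below 1 at each depth, with ratios of 0.897, 0.868 and 0.848. Below 2% mitochondrial share its direction turned, at 301 CPM in WT and 381 CPM in HKO, for a ratio of 1.27 (1.18 to 1.36).

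Cyp2f2 (ENSMUSG00000052974, chr7:27119909-27133660, plus strand) is no enzyme of nitrogen metabolism but a cytochrome P450 widely used as a periportal marker. It was at 954 CPM (945 to 962) in WT and 753 CPM (741 to 765) in HKO, for a ratio of 0.790 (0.775 to 0.804). The lower level in HKO was strongest where the mitochondrial share was below 2%. There Cyp2f2 was at 1018 CPM in 448 WT barcodes and 318 CPM in 232 HKO barcodes, for a ratio of 0.312 (0.290 to 0.336). Between 10% and 20% the ratio was 0.924 (0.900 to 0.949). Leaving out all barcodes below 2% brought the pooled ratio to 0.876. The part of the mitochondrial share in this difference was not tested.

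Per kilobase of exon in the principal transcript, the order of levels in WT was Ass1 (677 CPM per kilobase), Cyp2f2 (511), Cps1 (499), Otc (231), Sds (183), Asl (135), Hal (84.9), Gls2 (70.6) and Nags (15.9). In HKO the order was the same, from Ass1 (650 CPM per kilobase) and Cyp2f2 (404) to Nags (18.5). The counting intervals of Hal and Gls2 overlapped in HKO, so those neighbours could not be ranked there. The assay counts transcript ends, so scaling by length may overcorrect long transcripts such as Cps1.

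The next comparison asked whether the genes were lower in hepatocytes with a pericentral profile. Each barcode was thinned to 5000 UMIs and scored within its library by 12 pericentral genes that are not among the 9, among them Glul, Cyp2e1 and Oat. Correlations are Spearman's rho over barcodes of 1 library. Barcodes share the library and its free RNA, so rho is a description and carries no p. Of the 9 genes, 7 had a negative rho in WT and 9 in HKO, against 37.7% and 38.3% of 2620 genes with a mean of at least 50 CPM. The median was -0.19 in WT and -0.30 in HKO, where the median over those 2620 genes was 0.03 and 0.02.

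With this score the genes fell into a graded and a flat group in WT. Cps1 (-0.26), Hal (-0.25), Sds (-0.23), Cyp2f2 (-0.21) and Gls2 (-0.19) had a rho below the 5th percentile of all genes, which was -0.14. Asl (-0.07), Ass1 (-0.00), Otc (0.01) and Nags (0.02) lay inside the range of most genes. The split depended on the score. With the periportal score, described next, subtracted from it, all 9 genes had a negative rho in WT, among them Ass1 (-0.16), Asl (-0.13) and Otc (-0.10). In HKO all but Nags (-0.02) lay below the 5th percentile of -0.12. There Hal had a rho of -0.47, Cyp2f2 -0.44, Gls2 -0.37, Sds -0.35, Cps1 -0.30, Ass1 -0.25, Asl -0.21 and Otc -0.17. None of the 2620 genes had a lower rho than Hal in HKO. With a separate periportal score of 8 other genes, such as Pck1 and Gldc, all 9 genes correlated positively in both libraries, with a median rho of 0.29 in WT and 0.36 in HKO. Over the 2620 genes 59.7% were positive in WT and 48.7% in HKO, with medians of 0.01 and -0.00.

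**Figure D2:**
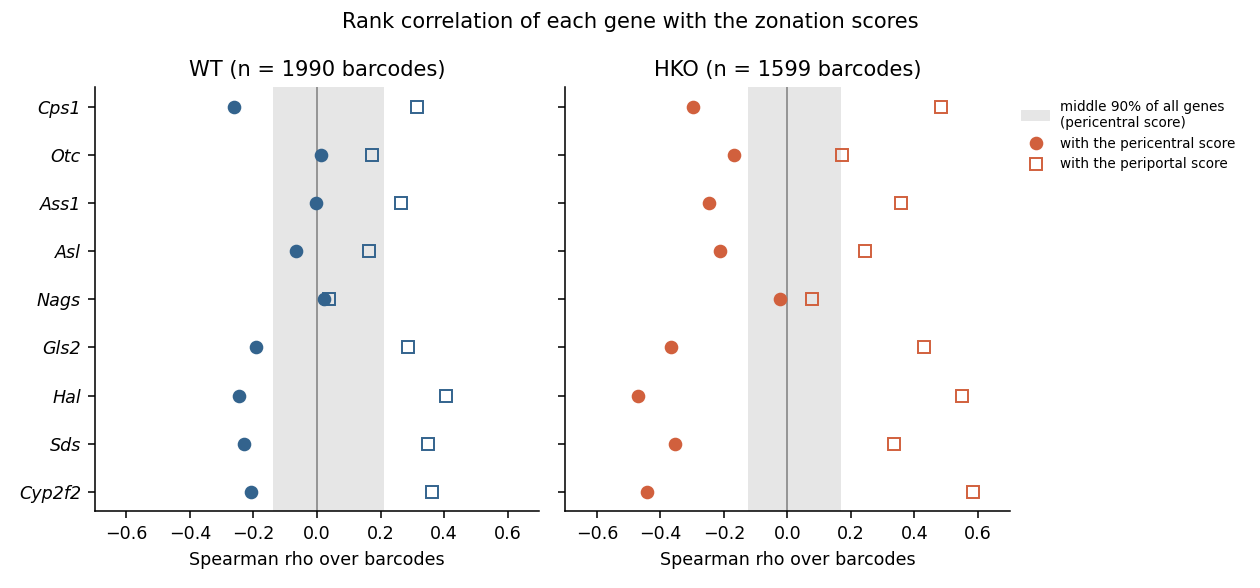
Spearman's rho of each gene with the pericentral score (filled circles) and the periportal score (open squares) over hepatocyte-like barcodes, WT on the left and HKO on the right. The grey band spans the 5th to 95th percentile of rho with the pericentral score over 2620 genes, from -0.14 to 0.21 in WT and from -0.12 to 0.16 in HKO. Otc, Ass1, Asl and Nags lay inside the band in WT, and Nags alone did in HKO.

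Quintiles of the barcodes by pericentral score show the shape of these gradients. The score is a continuous range, and each quintile is relative to its own library. From the lowest to the highest quintile, Cps1 was at 3468, 3530, 2838, 2466 and 2013 CPM in WT and at 2326, 2183, 2289, 1999 and 1056 CPM in HKO. It declined over several quintiles in WT, whereas in HKO most of the decline came in the last quintile. The highest over the lowest quintile gave 0.580 (0.558 to 0.603) in WT and 0.454 (0.429 to 0.481) in HKO. For comparison, the Cyp2e1 level, part of the score, was 22.5 times higher in the highest quintile of WT and 68.4 times higher in that of HKO. Alb, secreted by all hepatocytes, was lower there too, with ratios of 0.716 (0.709 to 0.724) and 0.507.

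Hal was at 594, 580, 443, 432 and 330 CPM over the quintiles of WT and at 674, 666, 624, 376 and 124 CPM over those of HKO. The ratio of outer quintiles was 0.556 (0.505 to 0.612) in WT and 0.184 (0.158 to 0.215) in HKO. Levels in HKO were thus above those of WT in the lowest quintile and below them in the highest. Sds had outer-quintile ratios of 0.420 (0.363 to 0.484) in WT and 0.169 (0.130 to 0.218) in HKO. It was lower in HKO in the lowest quintile too, where the ratio of HKO over WT was 0.811. The ratios of Gls2 were 0.463 (0.393 to 0.543) and 0.235 (0.189 to 0.290), and those of Cyp2f2 were 0.606 (0.566 to 0.648) and 0.264 (0.237 to 0.294). In HKO the ratios of these 4 genes, and that of Cps1, were below the 0.507 of Alb, with intervals that did not overlap its own.

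In WT the cycle genes other than Cps1 were flatter. Ass1 went from 1104 to 1026 CPM in WT, for a ratio of 0.930 (0.875 to 0.988), and from 1172 to 643 CPM in HKO, for a ratio of 0.549 (0.508 to 0.593). Asl gave 0.760 (0.678 to 0.853) and 0.476 (0.410 to 0.551). Otc had no gradient outside counting error in WT with this score, at 1.01 (0.930 to 1.10), and a ratio of 0.644 (0.576 to 0.719) in HKO. With the periportal score subtracted, the WT ratios were 0.813 (0.746 to 0.885) for Otc, 0.689 (0.648 to 0.733) for Ass1 and 0.614 (0.544 to 0.692) for Asl, all below 1, and at 20000 or more UMIs that of Otc was 0.808. In HKO the intervals of Ass1 and Asl overlapped that of Alb, and the Otc interval was above it. For Nags the intervals were wide, 0.667 to 1.45 in WT and 0.450 to 0.985 in HKO.

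**Figure D3:**
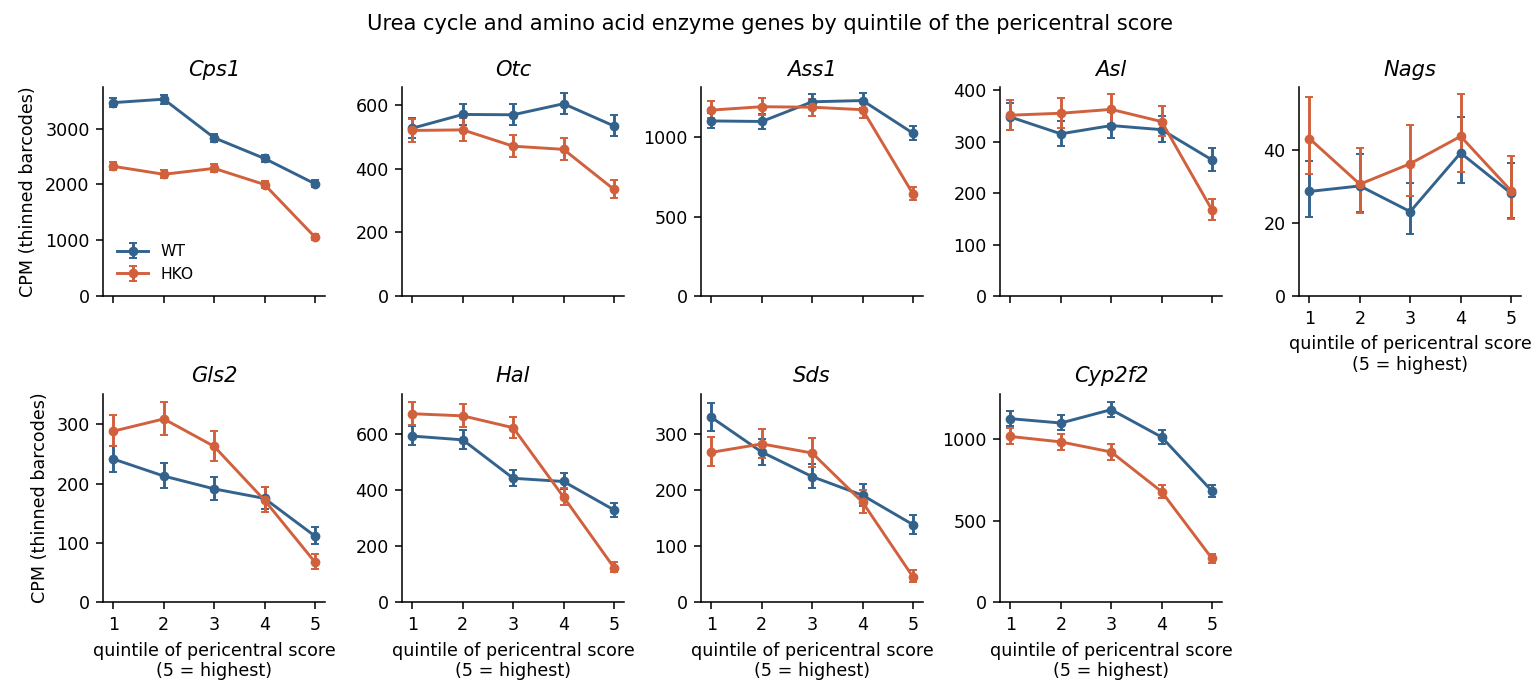
CPM of each gene (vertical axis from 0) in quintiles of the hepatocyte-like barcodes ordered by pericentral score, with 95% counting intervals, WT in blue and HKO in orange. In HKO all 9 genes were lowest in the last quintile, though the intervals of Nags overlapped, and Hal was at 124 CPM there against 330 CPM in WT.

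All 9 outer-quintile ratios were lower in HKO than in WT, though the Nags intervals overlapped, and so were those of 50.5% of 2612 genes. The outer quintiles also stood further apart in Cyp2e1 and Alb in HKO, as given above, so the count is not a result about these genes alone. Whether the gradients differ between genotypes was not tested, since each had 1 library. For the other 8 genes HKO was furthest below WT in the last quintile, where the ratio of HKO over WT was 0.327 (0.248 to 0.425) for Sds, 0.376 (0.319 to 0.441) for Hal, 0.394 (0.353 to 0.440) for Cyp2f2, 0.525 (0.496 to 0.556) for Cps1 and between 0.607 and 0.632 for Gls2, Otc, Ass1 and Asl. In the lowest quintile the same genes stood between 0.671 for Cps1 and 1.19 for Gls2. The quintiles do not hold equal cells. In the last quintile Glul was at 578 CPM in WT and 1885 CPM in HKO, and Cyp2e1 at 4233 and 6581 CPM. The median mitochondrial share was 16.7% in the lowest, 4.94% in the fourth and 7.12% in the highest quintile of WT, and 15.1%, 11.6% and 12.2% in those of HKO. The rank correlation of the score with that share was -0.27 in WT and -0.15 in HKO, and its part in the gradients, also of the genes that were flat in WT, was not tested. Free RNA at the commonest depth would give 19.4% of UMIs in the last quintile of WT and 7.82% in that of HKO. Subtracting it moved the outer-quintile ratio of Hal to 0.438 in WT and 0.131 in HKO, that of Sds to 0.333 and 0.125, and that of Cyp2f2 to 0.530 and 0.217. With at least 20000 UMIs per barcode, where free RNA would be 7.94% and 3.18%, Hal gave 0.434 and 0.149 and Cyp2f2 gave 0.558 and 0.183. In that range the order turned for Cps1, at 0.508 in WT and 0.652 in HKO. The stronger HKO gradient thus did not extend to Cps1 among the deepest barcodes.

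Barcodes with at least 5 Glul UMIs of 5000 (Glul-high) carry the defining gene of the cells next to the central vein. There were 30 in WT and 78 in HKO, and 12 and 6 more barcodes lay just below the threshold with 4 Glul UMIs. Oat, the ornithine aminotransferase of these cells, was at 2807 CPM in WT Glul-high barcodes against 50.1 CPM in the others, and at 5269 against 147 CPM in HKO. Against this, 8 of the 9 genes were below the other barcodes in both libraries with intervals under 1, as were 5.61% of 2620 genes with a mean of at least 50 CPM. Alb was among those, with ratios of 0.561 (0.541 to 0.581) in WT and 0.474 (0.461 to 0.487) in HKO. Cps1 was at 553 CPM in Glul-high and 2898 CPM in other barcodes of WT, for a ratio of 0.191 (0.152 to 0.237). In HKO it was at 228 and 2060 CPM, for a ratio of 0.111 (0.0889 to 0.136).

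Genes of the group that was flat by rho in WT, apart from Nags, were also low in Glul-high barcodes. Ass1 was at 233 against 1151 CPM in WT, for a ratio of 0.203 (0.141 to 0.282), and at 269 against 1116 CPM in HKO, for a ratio of 0.241 (0.197 to 0.292). Otc had the highest ratios of the 8, of 0.389 (0.267 to 0.546) and 0.399 (0.313 to 0.502). Hal gave 0.194 and 0.155, Cyp2f2 0.181 and 0.130, Gls2 0.177 and 0.236, Sds 0.229 and 0.178, and Asl 0.354 and 0.282. The Nags interval included 1 in both, from 0.361 to 2.64 in WT and from 0.328 to 1.29 in HKO. Free RNA could be part of what remained, in unequal shares. At the commonest depth it would supply 360 of the 553 CPM of Cps1 in WT and 157 of the 228 CPM in HKO. For Ass1 it would supply 251 CPM in WT, above the 233 CPM found, but only 101 of 269 CPM in HKO. In HKO it would also supply less for Otc (42.2 of 190 CPM), Asl (29.9 of 92.3 CPM) and Gls2 (12.1 of 53.8 CPM).

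**Figure D4:**
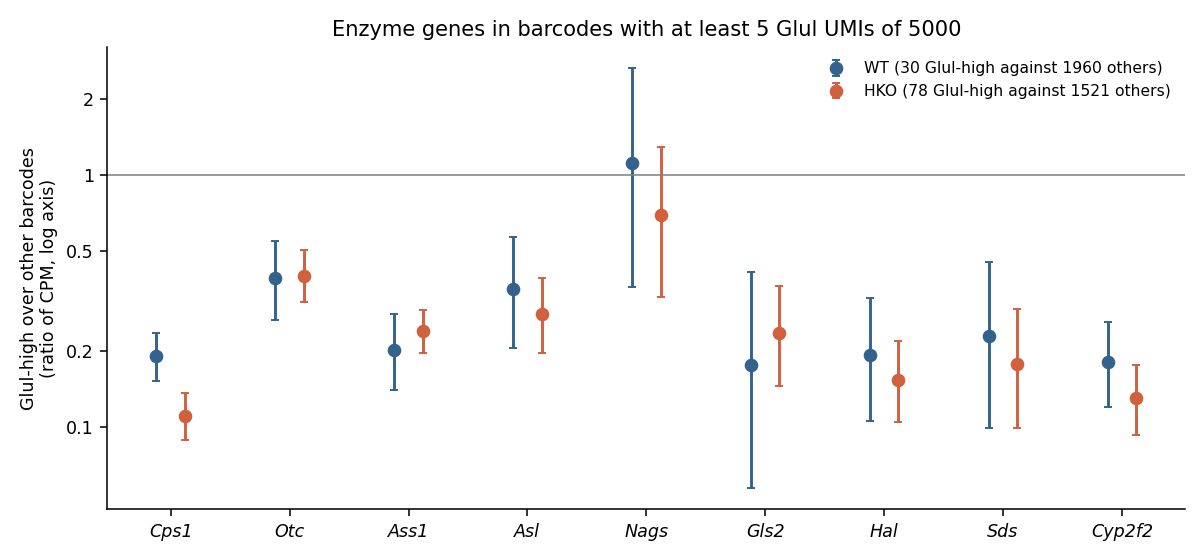
Ratio of CPM in Glul-high barcodes to CPM in the other hepatocyte-like barcodes (log axis, line at 1) with 95% counting intervals, WT in blue and HKO in orange. In 8 of the 9 genes both ratios lay below 1, from 0.111 for Cps1 in HKO to 0.399 for Otc in HKO, and the Nags intervals crossed 1. Alb, not plotted, was at 0.561 in WT and 0.474 in HKO, and 5.61% of 2620 genes had intervals under 1 in both libraries.

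The genes also varied with each other. Of 36 pairs, 34 had a positive rho in WT, with a median of 0.16, and 36 in HKO, with a median of 0.20. Over all pairs of the 2620 genes 55.5% were positive in WT and 52.3% in HKO, and the median was 0.01 and 0.00. The highest pairs in WT were Otc with Ass1 (0.35 in WT and 0.41 in HKO) and Hal with Sds (0.34 and 0.36), and those in HKO were Hal with Cyp2f2 (0.24 and 0.44) and Cps1 with Cyp2f2 (0.17 and 0.44). Cps1 stood apart from the enzyme that follows it, with a rho of -0.02 in WT and 0.06 in HKO against Otc, and went rather with Hal (0.30 and 0.39). Cps1 also differed from Otc and Ass1 in its relation to the mitochondrially encoded share of the barcode. That rho was 0.14 in WT and 0.24 in HKO for Cps1, -0.29 and -0.24 for Otc, and -0.36 and -0.27 for Ass1. Nags had a rho below 0.16 with every other gene, at a thinned mean of 0.149 UMIs per barcode in WT and 0.183 in HKO.

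**Figure D5:**
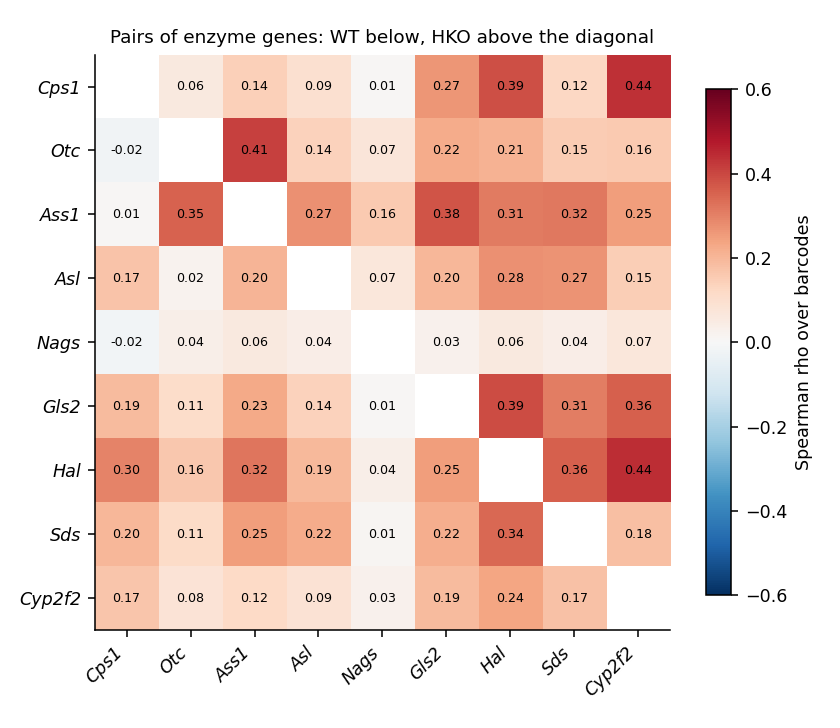
Spearman's rho over thinned hepatocyte-like barcodes for each pair of genes, WT below and HKO above the diagonal. The highest values were 0.35 in WT (Otc with Ass1) and 0.44 in HKO (Hal with Cyp2f2), and the row and column of Nags were near 0.

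Likeness to the 9 genes, summed or single, was ranked by the lower of the WT and HKO rho. Among 2610 other genes with a mean of at least 50 CPM, those most like the summed z scores of the 9 genes in both libraries were led by Pck1, the gatekeeper of gluconeogenesis, with a rho of 0.49 in WT and 0.55 in HKO. Next came Gnmt (0.40 and 0.41), Tat (0.38 and 0.38), Rida (0.33 and 0.45), Fbp1 (0.33 and 0.32), Hamp (0.32 and 0.42), Hsd17b6 (0.32 and 0.41), Gldc (0.31 and 0.36), Serpina1c (0.31 and 0.48) and Tdo2 (0.30 and 0.37). Serpina1c has near-identical copies, and its counts are uncertain. Pck1 was also the nearest gene of Gls2, Hal and Sds taken singly, at a rho of 0.26, 0.41 and 0.34 in WT. The gene most like Cps1 by that ranking was Slc7a2, a carrier of cationic amino acids such as arginine and ornithine, at 0.54 in WT and 0.47 in HKO. In WT alone Dpyd was closer to Cps1, at 0.55. Rida was nearest to Otc (0.41 and 0.40) and Ass1 (0.49 and 0.54), Gnmt to Asl (0.22 and 0.26), and Alb to Cyp2f2 (0.50 and 0.59). In WT alone Scp2 was closer to Otc, at 0.44. For Nags the nearest was Oaz1 at only 0.11 and 0.10. At the other end, the lowest rho of Gls2, Hal and Sds was with Cyp2e1, a pericentral cytochrome P450, at -0.36, -0.47 and -0.42 in HKO.

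Wider lists of amino acid genes gave the setting. Of 18 measured genes of urea cycle transport and ammonia supply, 1 was at least 1.5-fold higher in HKO and 1 lower, with a median log2 ratio of -0.04. The former was Car5a, the mitochondrial carbonic anhydrase that supplies bicarbonate to Cps1, at 23.6 CPM in WT and 37.2 CPM in HKO, for a ratio of 1.58 (1.44 to 1.73). The latter was Slc25a22, a mitochondrial glutamate carrier, at 104 and 67.2 CPM, for a ratio of 0.649 (0.611 to 0.690). Gpt2 (1.39) and Slc25a13 (1.17), the aspartate-glutamate carrier, came next above, and Gpt (0.753) and Slc3a1 (0.772) next below.

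On the pericentral side, 3 of 3 measured genes were at least 1.5-fold higher in HKO. Glul was at 175 CPM in WT and 400.4 CPM in HKO, for a ratio of 2.29 (2.22 to 2.36). Oat was at 99.4 and 378 CPM, for a ratio of 3.81 (3.67 to 3.95), and Slc1a2, a glutamate transporter, at 29.1 and 88.7 CPM, for a ratio of 3.05 (2.84 to 3.27). Glul-high barcodes made up 30 of 1990 in WT and 78 of 1599 in HKO. Among the other thinned barcodes Oat was still at 50.1 CPM in WT and 147 CPM in HKO. Leaving out Glul-high barcodes moved the Cps1 ratio to 0.734 and that of Cyp2f2 to 0.811. A larger share of pericentral cells and more transcript per cell cannot be told apart in the pooled levels.

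Genes of histidine, serine, glycine and one-carbon metabolism stayed within the fold. Of 16 measured, 0 passed 1.5-fold in either direction, 13 were below 1, against 50.4% of all 7077 genes, and the median log2 ratio was -0.17. The lowest were Gldc (0.731), the glycine cleavage decarboxylase, Sdsl (0.754) and Shmt2 (0.815), and the highest Aldh1l1 (1.20), Gcsh (1.18) and Shmt1 (1.09). Among 16 genes of aromatic amino acids, Afmid of the kynurenine pathway was higher, at 1.98 (1.85 to 2.12), and Tat, which opens tyrosine breakdown, was lower, at 0.546 (0.533 to 0.560). Qdpr (1.24) and Hpd (1.16) followed above, and Hgd (0.700) and Kynu (0.765) below. Of 20 genes of branched-chain, lysine, proline and sulfur amino acids, 2 were higher. These were Mat1a, which makes S-adenosylmethionine, at 1877 CPM in WT and 4400 CPM in HKO, for a ratio of 2.34 (2.32 to 2.37), and Csad of taurine synthesis, at 1.70 (1.64 to 1.77). Prodh (1.34) was next, and Prodh2 (0.728), Cbs (0.837) and Mccc1 (0.845) were the lowest. Among 13 receptors and transcription factors, Onecut1 was at 12.9 CPM in WT against 57.1 CPM in HKO, for a ratio of 4.42 (4.01 to 4.88), and Cebpb was lower, at 0.657 (0.635 to 0.680). Foxa3 (1.40) and Foxa2 (1.37) were next above, and Klf15 (0.707) and Cebpa (0.709), which binds promoters of ureagenic genes, next below.

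Promoters are shown for Hal, Cyp2f2 and Otc, because their gradients differed. Hal had the lowest rho with the pericentral score in HKO, Cyp2f2 is the periportal marker, and Otc was flat in WT with that score. RefSeq promoters on GRCm38.p6 were at hand for Otc, Ass1, Nags, Hal and Cyp2f2. The 150 bases before each start are given on the plus strand, at chr10:93488618-93488767, chr7:27119805-27119954 and chrX:10252155-10252304, with motif matches in capitals. RefSeq places the start of Cyp2f2 at 27119955, inside the gene as GENCODE has it, so part of its stretch lies within the GENCODE gene.
Hal: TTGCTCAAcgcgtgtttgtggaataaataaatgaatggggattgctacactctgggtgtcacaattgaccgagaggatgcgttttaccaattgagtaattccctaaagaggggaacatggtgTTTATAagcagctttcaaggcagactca
Cyp2f2: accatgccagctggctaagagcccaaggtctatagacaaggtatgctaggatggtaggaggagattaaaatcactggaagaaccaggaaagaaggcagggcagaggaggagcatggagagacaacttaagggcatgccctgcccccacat
Otc: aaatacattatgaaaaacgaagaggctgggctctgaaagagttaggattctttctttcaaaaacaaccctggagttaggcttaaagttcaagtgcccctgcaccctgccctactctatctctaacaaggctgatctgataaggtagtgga
Both strands of the 300 bases around each start were searched for TATAAA (core element bound by TBP), TTGCNNAA (C/EBP motif), TGACG (core of the cAMP response element) and CAAAG (shared by HNF4 and TCF motifs). Of 32851 promoters, 13.6%, 10.8%, 20.8% and 53.9% held them. Hal held TATAAA, on the minus strand, and TTGCNNAA. TGACG was found in Nags, and CAAAG in Hal, Nags and Otc, outside the bases shown for Hal and Otc. No motif set the graded genes apart from the flat ones in these 5 promoters.

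Finally, other cell classes were examined for UMIs of the same genes. Observed UMIs were divided by those expected from free RNA of the same library, scaled by hepatocyte reference genes. In WT T and NK-like barcodes the ratio lay between 0.934 and 1.03 for 8 genes and was 0.706 (0.404 to 1.15) for Nags, and each interval held 1. Against the hepatocyte-like profile in place of free RNA, the same ratios were 1.62 for Otc, 1.47 for Ass1 and 1.46 for Hal. Nor did the intervals hold 1 in every class. Of 72 ratios over 4 classes and both libraries, 18 had an interval that excluded 1, of which 7 were in WT endothelial-like barcodes, where Cps1 was at 1.14 (1.11 to 1.18) and Otc at 0.626 (0.584 to 0.669). Asl was at 1.17 (1.04 to 1.31) and Cps1 at 0.911 (0.860 to 0.964) in HKO T and NK-like barcodes, and Asl at 1.20 (1.04 to 1.37) in WT macrophage-like ones. HKO macrophage-like barcodes had Gls2, a hepatocyte gene, above free RNA, at 1.46 (1.12 to 1.88), and Gls2 was at 1.52 (1.07 to 2.11) in B and plasma-like and 1.49 (1.30 to 1.70) in endothelial-like barcodes of HKO. Set against the profile of hepatocyte-like barcodes in place of free RNA, the HKO macrophage-like ratio of Gls2 was 0.957. Whether these classes expressed Gls2 could not be read from these counts.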

How the data were processed

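The authors ran Cell Ranger 7.1.0, as the file headers say, on the mm10 build named in the submitters' processing notes, and the deposited matrices hold the resulting counts of UMIs for each gene in each barcode. Other counting options were not given in the sources used here. Barcodes with at least 500 UMIs, 300 genes and at most 50% mitochondrially encoded UMIs were kept (29620 in WT and 18247 in HKO). They were clustered over both libraries (scanpy 1.11.5, igraph 0.11.9, 2000 variable genes, 30 components, 15 neighbours, resolution 1.0) and named from marker lists, where at least 3 markers had to be in 10% of barcodes and 2-fold above the rest. Hepatocyte-like barcodes needed at least 5000 UMIs in both libraries. Scrublet marked 0 doublets in either library and so had not worked, and none were removed. Barcodes shared between the libraries were not counted, as the list of WT barcodes was not used here.

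UMIs were summed per class and scaled to 1000000 (CPM). The library totals were 130451427 UMIs in WT and 52563185 in HKO. CPM have exact Poisson intervals, shares exact Clopper-Pearson intervals and ratios (HKO over WT) exact conditional intervals. With 1 sample a group, no test was run, and a gene was counted as different past 1.5-fold. Scores are means of z-scaled log counts of barcodes thinned to 5000 UMIs. The ratio, thinning and rank code was tested on simulated data. Of the 10 genes in the set, 9 were named, and the other and a gene near the set by rho are not reported here. In each list of other genes the 3 highest and 3 lowest ratios were named, with the 10 nearest genes to the set and the single nearest to each gene by rho. The genes and lists were chosen with earlier results of these data known. Sds, Cyp2f2, Gls2 and Nags overlap annotated genes of the opposite strand, and strand handling was not stated.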

Additional observations from a re-analysis of the deposited data

How the results depend on the processing

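With 1 library per genotype, only processing choices could be varied. No paired analysis was possible because each genotype had 1 library. The count of genes past 1.5-fold was 0 in both directions under all 15 settings but 1: with at least 2000 UMIs, 1 gene was lower, Otc at 0.656. That minimum lay below the commonest depth of WT (2630 UMIs) and above that of HKO (794 UMIs). Its 26878 WT barcodes were therefore mostly droplets of free RNA depth, whereas its 2997 HKO barcodes lay above that depth, so the sets were unlike. The Cps1 ratio ranged from 0.670 to 0.745, Otc from 0.656 to 0.925, Cyp2f2 from 0.677 to 0.876, Sds from 0.835 to 0.913, Gls2 from 1.18 to 1.29 and Nags from 1.03 to 1.28, each on its own side of 1. Hal turned to 0.888 (2000 UMIs) and 0.994 (5000 to 20000 UMIs), and Asl to 1.00, 1.01 and 1.01 (at least 2 times the commonest depth, no immune or endothelial UMI, none below 2% mitochondrial). Ass1 turned to 1.01 (10000 UMIs), 1.02 (5000 to 20000 UMIs), 1.01 (10% free RNA subtracted) and 1.02 (subtracted at the commonest depth). The cause was not tested.

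The WT median rho moved to -0.29 with the periportal score subtracted, to -0.28 when thinned to 10000 UMIs and to -0.25 without thinning, and stayed negative in both libraries under every setting run. The outer-quintile ratio of Nags in HKO turned to 1.07 without thinning and 1.14 on nuclear-encoded UMIs. At a minimum of 1 CPM the median log2 ratio of the pericentral list, then of more genes, was 0.87. In other classes, turns are given for ratios whose main interval excluded 1. Among these, scaling by Alb turned 2 WT endothelial-like ratios, to 0.985 (Cps1) and 0.945 (Cyp2f2). The hepatocyte-like profile turned WT Otc to 1.25 (B and plasma-like) and 1.02 (endothelial-like), WT Hal to 1.02 (endothelial-like) and HKO Gls2 to 0.996 (B and plasma-like), 0.975 (endothelial-like) and 0.957 (macrophage-like). Settings that used 20000 UMIs, barcodes below 2% mitochondrial, Glul-high barcodes or free RNA at the commonest depth were chosen after seeing the data.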
